A study of Sus scrofa with 12 samples.

Results

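The nuclear-encoded subunits of the mitochondrial respiratory chain and ATP synthase were described across fresh and vitrified pig blastocysts. Members were taken by gene symbol from the deposited table. They comprise the numbered NDUFA, NDUFB, NDUFC, NDUFS and NDUFV genes, SDHA to SDHD, the UQCR genes, CYC1, the COX4I, COX5, COX6, COX7 and COX8 genes, and the ATP5 genes. This gave 72 genes of 31781 identifiers, of which 15347 carried a symbol. By complex there were 31 genes of complex I, 4 of complex II, 8 of complex III, 16 of complex IV and 13 of complex V. NDUFA4 and NDUFA4L2 are named after complex I but were placed with complex IV, where NDUFA4 is now known to reside. Symbol matching did not find NDUFS7, ATP5F1B, COX6B1, COX7B2 or COX8C, which were not analysed here.

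The respiratory chain passes electrons from NADH (complex I) or succinate (complex II) through complex III to oxygen at complex IV. Complexes I, III and IV pump protons, and ATP synthase (complex V) uses the resulting gradient to make ATP. Most subunits are encoded in the nucleus, made in the cytosol and imported, and a few core subunits of every complex except complex II are encoded by mitochondrial DNA. In the mammalian embryo, oxidative phosphorylation is a main source of ATP, and its use rises around blastocyst formation.

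The blastocysts were of the pig, Sus scrofa, and were parthenogenetic in all groups: an egg was activated without sperm, so these embryos carry no paternal genome. The groups were a fresh control (labelled A, 3 libraries) and 3 groups preserved by vitrification, which is rapid cooling into a glass-like state. These are called vitrification (B, 2 libraries here), vitrification I (C, 3 libraries) and vitrification II (H, 3 libraries) after the titles; a further vitrification library was not analysed here. Libraries were made by Smart-Seq2, which amplifies cDNA from very small inputs. Liquid helium appears in the series title without being tied to a group, and the labels give no genotype, embryo age or pool size. The source is given as blastocyst, while the protocol describes sorted single cells, so the p-values reflect how far these libraries scatter, which may be technical scatter alone.

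Values are FPKM, fragments per unit of gene length and per library total, which allow comparison of levels between genes. Summed FPKM per library ran from 439650 to 591894, and sequencing depth is unknown. Transcripts of the mitochondrial genome took 37.6 to 43.9% of all FPKM in fresh control, 38.8 and 51.8% for vitrification, 43.9 to 64.3% for vitrification I and 16.9 to 22.1% for vitrification II. FPKM is relative to a library's total, so this share enters every level below. Counts under a total without mitochondrial transcripts are given beside the results they change. The number of genes above 0 was 15383 to 16046 in fresh control, 17726 and 18527 for vitrification, 11550 to 14039 for vitrification I and 15415 to 16204 for vitrification II. All 8 trophectoderm markers passed the low-value filter; of 6 epiblast markers, POU5F1, SOX2 and UTF1 were not matched by symbol. Cumulus markers summed to at most 3.90 FPKM in any library, and 5 matched leukocyte and erythroid markers to at most 15.6 FPKM, with PTPRC listed at 0 throughout. In material of this kind, fewer cells of a type and less RNA per cell cannot be told apart.

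Respiratory chain transcripts were abundant in every group and lower in sum in the vitrified groups. The 72 genes summed to 21303, 24357 and 24515 FPKM in the fresh control libraries, or 23390 ± 1811 (SD, n = 3). The sums were 17599 and 10497 in vitrification, 18194, 20071 and 10970 for vitrification I, and 15678, 17579 and 14060 for vitrification II. All 8 vitrified libraries lay below the lowest fresh control library, and the second vitrification library and the third vitrification I library were the lowest. As a share of all FPKM, the genes took 4.10 ± 0.22% in fresh control, 2.67 ± 0.89% in vitrification (n = 2), 2.99 ± 1.04% for vitrification I and 3.36 ± 0.31% for vitrification II. Counted against FPKM outside the mitochondrial genome, the shares were 6.83 ± 0.15%, 4.81 ± 0.83%, 6.66 ± 1.35% and 4.19 ± 0.50% in the same order. On that second scale vitrification I had a mean close to that of fresh control, with a wider spread.

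On the deposited FPKM scale, the means of the vitrified groups were lower than fresh control in every complex. Sums by complex were not set against FPKM outside the mitochondrial genome. On that scale the 72 genes together took 6.66 ± 1.35% in vitrification I and 6.83 ± 0.15% in fresh control. Complex I subunits summed to 6501 ± 285 FPKM in fresh control, 3723 ± 996 for vitrification, 4744 ± 1381 for vitrification I and 4607 ± 602 for vitrification II. Complex II, the succinate dehydrogenase, was at 1059 ± 97.6, 486 ± 131, 713 ± 249 and 627 ± 160.4 FPKM in that order. Complex III was at 3398 ± 449, 1661 ± 559, 2046 ± 592.4 and 2102 ± 381 FPKM. Only complex V had a vitrified library above a fresh control library, vitrification I replicate 2, among the sums plotted by complex. Complex IV was at 5669 ± 636, 3811 ± 1252, 3692 ± 941 and 3882 ± 86.7 FPKM, and complex V at 6764 ± 661, 4366 ± 2083, 5217 ± 1665 and 4555 ± 765 FPKM.

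**Figure D1:**
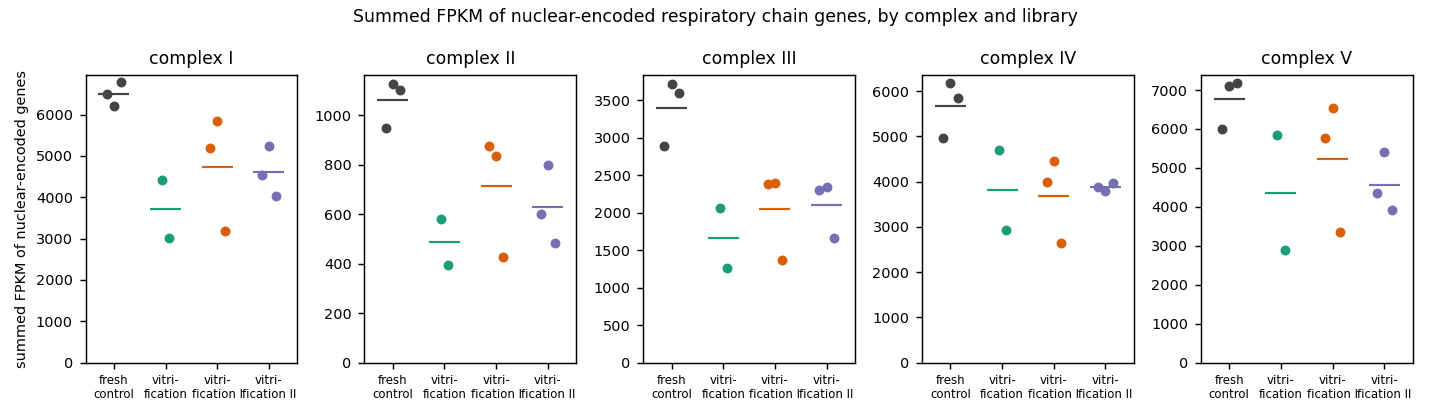
Summed FPKM of the nuclear-encoded subunits of each complex (vertical axis, from 0) in each library, by group; points are libraries and bars are group means. Fresh control libraries are the highest in complexes I to IV, and the third vitrification I library is the lowest of its group in every complex.

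The ratio of nuclear-encoded to mitochondrially encoded transcripts varied between the groups. The mitochondrially encoded sum can be set against the nuclear-encoded sum within a library, a ratio that needs no scaling between libraries. The nuclear sum of complex I was 8.31 to 10.3% of its mitochondrially encoded sum in fresh control, 3.69 and 7.12% for vitrification, 2.31 to 7.53% for vitrification I and 13.9 to 14.6% for vitrification II. Every vitrified library of the first 2 vitrified groups was below fresh control and every vitrification II library was above it. For complex IV the ranges were 6.07 to 7.32%, 2.73 and 4.91%, 2.60 to 6.59%, and 9.37 to 13.6%. For complex V they were 9.69 to 11.99%, 4.67 and 15.0%, 3.18 to 10.3%, and 19.9 to 23.3%. Complex III, with CYTB as its single mitochondrially encoded subunit, gave 14.2 to 30.6%, 7.95 and 21.1%, 3.89 to 13.9%, and 32.6 to 44.0%. Vitrification II libraries were the highest in all 4 complexes, without overlap with any other group.

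**Figure D2:**
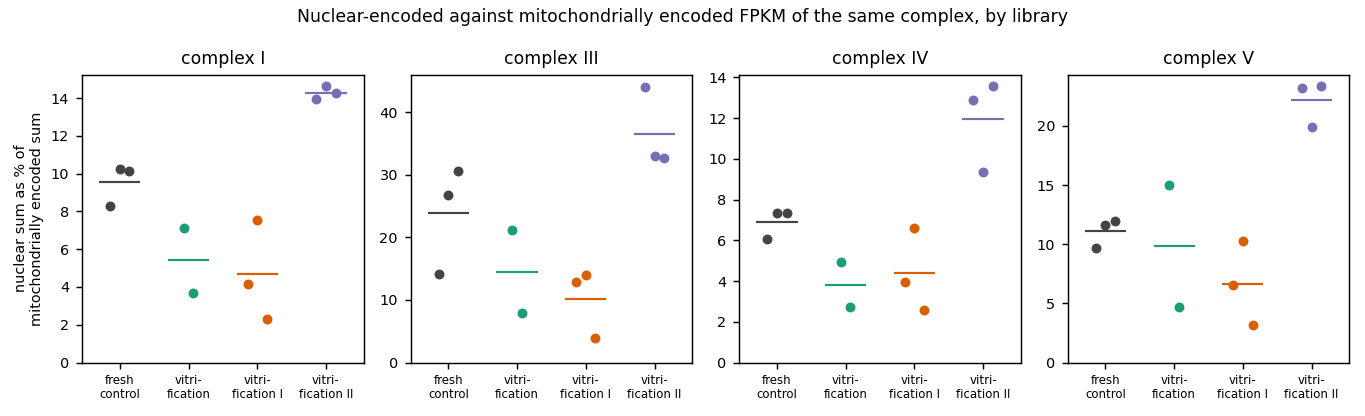
Nuclear-encoded sum as a percent of the mitochondrially encoded sum of the same complex (vertical axis, from 0) in each library; points are libraries and bars are group means. The vitrification II libraries lie above all others in complexes I, III, IV and V.

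Group means of log2(FPKM + 1) were compared gene by gene with limma (moderated, two-sided) across 9411 genes that reached an FPKM of 1 in 3 or more libraries; a change was called at an adjusted p under 0.05. Of the 72 members, 69 passed this filter. COX4I2, COX6A1 and COX6B2 did not. Fold changes are on the log2(FPKM + 1) scale, which understates changes of low genes. The F test over the 4 groups called 15 of the 69 members, against 42.7% of all genes tested.

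Of the 13 mitochondrially encoded subunits, 11 fell in vitrification II against fresh control and none rose, where 1.09% of all genes tested were called lower and 24.6% higher. ATP6, a proton-channel subunit of ATP synthase, was at 42700 ± 4097 FPKM in fresh control and 13640 ± 2838 in vitrification II, a log2 change of -1.66 ± 0.33 (SE; limma, Benjamini-Hochberg adjusted p = 0.00336). In vitrification I, ND4 and ND4L of complex I rose and none fell, where 8.85% of all genes were called higher. ND4 was at 14880 ± 4741 FPKM in fresh control and 34560 ± 10150 in vitrification I (log2 change 1.21 ± 0.35, adjusted p = 0.0247, limma). None of the 13 was called in vitrification against fresh control. Their median was 0.33 for vitrification I and -1.24 for vitrification II.

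In vitrification I against fresh control, 15 of 69 members fell and none rose, where 9.77% of all genes tested were called lower and 8.85% higher. At an unadjusted p under 0.05 the limma test gave 22 lower members and 0 higher. Over all 9411 genes tested it gave 1679 lower and 1457 higher. The median member changed by -0.55, against -0.06 for all genes tested. With totals that leave out mitochondrial transcripts these medians were -0.058 and 0.272, and with quantile normalization they were -0.057 and 0.002. The distance of the members from all genes thus depended on the scaling. The fallen members were 4 of 31 tested in complex I, 2 of 4 in complex II, 4 of 8 in complex III, 1 of 13 in complex IV and 4 of 13 in complex V. Libraries did not overlap, with all vitrification I libraries lower, in 28 members; this held for 18.9% of all genes tested. No member lay above without overlap, against 17.3% of all genes.

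NDUFA10, an accessory subunit of complex I, showed the deepest fall. Its FPKM was 124, 199 and 241 in the fresh control libraries, 112 and 70.2 for vitrification, 19.7, 34.4 and 17.0 for vitrification I, and 186, 197 and 149.6 for vitrification II. The vitrification I libraries were below every other library. The log2 change of NDUFA10 against fresh control was -2.95 ± 0.38 (SE, limma adjusted p = 0.000341), and vitrification II lay within the fresh control range. NDUFV1, the flavin-binding subunit that oxidises NADH, was at 166.5, 276 and 281 FPKM in fresh control and 64.6, 123 and 48.7 in vitrification I. It fell by 1.67 ± 0.38 on the log2 scale (limma adjusted p = 0.00864), without overlap between the groups. NDUFB11, a membrane-arm accessory subunit, fell by 1.14 ± 0.31 (limma adjusted p = 0.0203). The core iron-sulfur subunit NDUFS1 was at 69.8, 42.0 and 66.2 FPKM in fresh control and 43.7, 64.4 and 59.5 in vitrification I, and these overlapped. Its log2 difference had a 95% interval from -0.87 to 0.73.

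In complex II, the catalytic flavoprotein SDHA fell. Its FPKM was 63.5, 88.7 and 107 in fresh control, 32.9 and 29.1 for vitrification, 15.2, 41.1 and 14.2 for vitrification I, and 75.0, 76.9 and 60.6 for vitrification II. Both of the first 2 vitrified groups lay below every fresh control library. The log2 change of SDHA in vitrification I was -1.97 ± 0.40 (limma adjusted p = 0.00465). The membrane anchor SDHC fell by 1.73 ± 0.41 (limma adjusted p = 0.00995), from 35.8, 68.7 and 57.9 FPKM to 17.1, 18.9 and 10.4. The iron-sulfur subunit SDHB was at 347, 317 and 297 FPKM in fresh control and 331, 369.7 and 160.2 in vitrification I, with overlapping groups (95% interval of the log2 difference -1.03 to 0.54).

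Complex III held 4 of the called members. CYC1, cytochrome c1, carries the heme that hands electrons to cytochrome c. CYC1 was at 281, 451 and 289.7 FPKM in fresh control, 82.5 and 80.6 for vitrification, 62.1, 86.0 and 39.9 for vitrification I, and 223, 108 and 69.4 for vitrification II. All 8 vitrified libraries were below the fresh control libraries. The log2 change of CYC1 was -2.46 ± 0.43 in vitrification I (limma adjusted p = 0.00187). UQCRC1, a core protein of the matrix arm, was at 368, 882 and 837 FPKM in fresh control and 123, 238 and 94.0 in vitrification I, and fell by 2.20 ± 0.43 (limma adjusted p = 0.00359). The Rieske iron-sulfur protein UQCRFS1 fell by 1.37 ± 0.37 (limma adjusted p = 0.0202) and the second core protein UQCRC2 by 1.16 ± 0.34 (limma adjusted p = 0.0282). UQCRB, the ubiquinone-binding accessory subunit, was at 377 ± 29.9 FPKM in fresh control and 382 ± 119 in vitrification I (95% interval of the log2 difference -0.79 to 0.73).

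COX8A was the called member of complex IV. This small ubiquitous subunit was at 691, 1244 and 1045 FPKM in fresh control and 261, 369.5 and 206 in vitrification I, without overlap, and fell by 1.83 ± 0.36 (limma adjusted p = 0.00372). COX4I1, the main regulatory subunit, was at 675, 572 and 628 FPKM in fresh control and 323, 417 and 268 in vitrification I. Its groups did not overlap either, but it missed the threshold (limma adjusted p = 0.0505). In complex V, ATP5F1D, the delta subunit of the F1 stalk, was at 90.2, 145 and 138 FPKM in fresh control, 98.2 and 72.4 for vitrification, 25.8, 30.8 and 16.6 for vitrification I, and 119, 96.5 and 89.5 for vitrification II. The vitrification I libraries lay below all others. Its log2 change against fresh control was -2.31 ± 0.35 (limma adjusted p = 0.000776).

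The other complex V calls in vitrification I were ATP5F1C, the gamma subunit of the rotor (-1.25 ± 0.41, limma adjusted p = 0.0479), ATP5MC2 (-1.46 ± 0.40, limma adjusted p = 0.0189) and ATP5MC3 (-1.45 ± 0.42, limma adjusted p = 0.0256). The ATP5MC genes encode the same mature c-ring subunit, and the division of reads among them was not checked. ATP5IF1, which inhibits the reverse reaction of ATP synthase and is not a catalytic subunit, had its highest values in vitrification I. It was at 579, 748 and 730.3 FPKM in fresh control and 1065, 1209 and 565 in vitrification I, with overlapping groups. NDUFS6, a zinc-binding accessory subunit of complex I, fell by 1.94 ± 0.54 (limma adjusted p = 0.0215), although the highest vitrification I library, at 9.88 FPKM, was above the lowest fresh control library, at 8.13.

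Several of these calls rested on single libraries or on the scaling. The 7 calls that held in all 18 alternatives were those of NDUFA10, NDUFV1, SDHA, CYC1, UQCRC1, COX8A and ATP5F1D. With totals that leave out mitochondrial transcripts, 8 members fell and 1, ATP5IF1, rose (limma adjusted p = 0.038). Of all genes tested on that scale, 5.31% were called lower and 14.3% higher. Without fresh control replicate 2 there were 7 calls, without replicate 3 there were 9, and without vitrification I replicate 3 there were 8. Of all genes tested, 4.88%, 5.02% and 5.77% were called lower in these fits in that order, against 9.77% with all libraries. Summed trophectoderm marker FPKM was 2307 to 5588 in vitrification I, against 10260 to 15270 in fresh control, 6411 and 16820 in vitrification and 13370 to 21740 in vitrification II. Of these 8 markers 4 were called lower in vitrification I against fresh control and none higher. Their median log2 change was -1.02. The matched epiblast markers summed to 1.37 to 6.13 FPKM in vitrification I and 8.15 to 12.6 in fresh control. Of these 3 markers 1 was called lower, against 9.77% of all genes tested, and their median log2 change was 0.05. The part of these differences in the results was not tested.

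**Figure D3:**
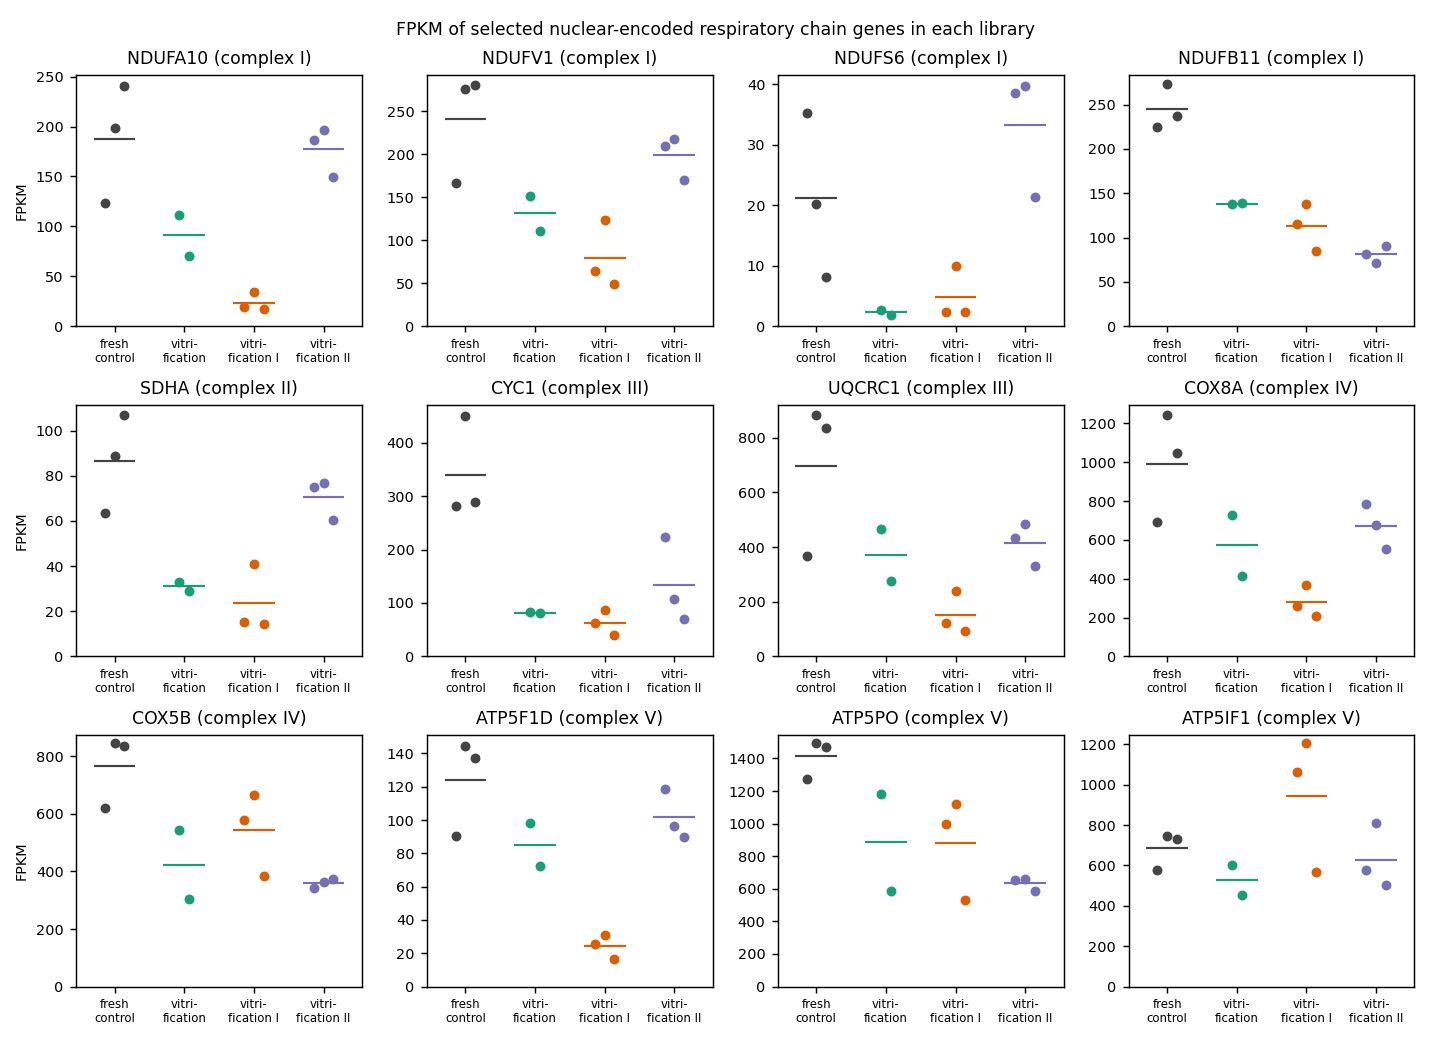
FPKM (vertical axes, from 0) of 12 members in each library by group; points are libraries and bars are group means. NDUFA10 and ATP5F1D are lowest in vitrification I, NDUFB11, COX5B and ATP5PO have their lowest group mean in vitrification II, and CYC1 is below fresh control in all 8 vitrified libraries.

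Vitrification II against fresh control gave 7 fallen members and no risen member. Of all genes tested, 1.09% were called lower and 24.6% higher. Matched epiblast markers (NANOG, KLF4 and LIN28A) summed to 37.2 to 89.2 FPKM in vitrification II and 8.15 to 12.6 in fresh control, with 2 of 3 called higher; their part in these results was not tested. At an unadjusted p under 0.05 there were 14 lower members and 1 higher in the limma test. Over all 9411 genes tested there were 233 lower and 3500 higher. The median over members was -0.46 while that over all genes tested was 0.62, a difference of -1.08. With quantile normalization these medians were -0.562 and -0.027, a difference of -0.534. Without the low-value filter they were -0.445 and 0.054, a difference of -0.499. In 31 members all vitrification II libraries were below fresh control, against 3.41% of all genes tested, and in 1, COX6A2, all were above, against 44% of all genes. The comparisons with fresh control share its 3 libraries, so their values are set side by side without a test of likeness.

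NDUFB11, the membrane-arm subunit of complex I, fell the most. It was at 224, 274 and 237 FPKM in fresh control, 138 and 138 for vitrification, 115, 138 and 84.8 for vitrification I, and 81.3, 71.1 and 91.0 for vitrification II. The 8 vitrified libraries were all below fresh control. Its log2 change in vitrification II was -1.59 ± 0.31 (limma adjusted p = 0.00303), or -2.21 relative to the median of all genes. CYC1 fell by 1.48 ± 0.43 (limma adjusted p = 0.0213), with its first library, at 223 FPKM, nearest to fresh control. ATP5PO, the oligomycin sensitivity protein that links F1 to its stator, was at 1275, 1496 and 1473 FPKM in fresh control and 652, 663 and 586 in vitrification II. It fell by 1.16 ± 0.36 (limma adjusted p = 0.0290), with no overlap.

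COX5B and COX7B, accessory subunits of complex IV, also fell in vitrification II. COX5B was at 622, 848 and 836 FPKM in fresh control and 343, 364 and 374 in vitrification II, a log2 change of -1.08 ± 0.34 (limma adjusted p = 0.0297). COX7B was at 325, 566 and 588 FPKM in fresh control and 169.9, 197 and 314 in vitrification II (-1.12 ± 0.39, limma adjusted p = 0.0472). All vitrification II libraries were below fresh control for both, though COX7B was separated by little. ATP5ME, subunit e of the membrane part of ATP synthase, fell by 1.03 ± 0.35 (limma adjusted p = 0.0408) and NDUFS5, an accessory subunit of complex I, by 0.96 ± 0.33 (limma adjusted p = 0.0455). SDHA, NDUFV1, UQCRC1 and ATP5F1D, which fell in vitrification I, had vitrification II means of 70.8, 199, 417 and 102 FPKM against fresh control means of 86.4, 241, 696 and 124.

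NDUFB11 was the call that held in all 18 alternatives. The number of fallen members was 13 with totals that leave out mitochondrial transcripts, 4 with the replicate number as a block and 1 without the low-value filter. Of all genes tested, 1.21%, 1.02% and 0.359% were called lower under these settings in that order. The number of fallen members was 1 without fresh control replicate 2 or without vitrification II replicate 2, 2 when fresh control replicate 3 or either of vitrification II replicates 1 and 3 was left out, and 4 without vitrification I replicate 1. Of all genes tested, 0.331%, 0.511%, 0.448%, 0.98%, 0.417% and 1.03% were called lower in these fits in that order.

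Vitrification, with 2 libraries, gave 1 fallen member and no risen one against fresh control. Among all genes tested, 0.117% were called lower and 1.25% higher. The limma test gave 25 lower members and 1 higher at an unadjusted p under 0.05. Over all 9411 genes tested it gave 279 lower and 1430 higher. The median member changed by -0.73, against 0.19 for all genes tested. With totals that leave out mitochondrial transcripts these medians were -0.469 and 0.384, and with quantile normalization they were -0.393 and -0.047. In 43 members both vitrification libraries were below fresh control, among them 25 of 31 in complex I and 7 of 8 in complex III, against 11.5% of all genes tested. Both were above fresh control in 2 members, COX7A1 and NDUFA4L2, against 25.5% of all genes. The called member was NDUFS6, at 35.2, 20.2 and 8.13 FPKM in fresh control and 2.70 and 1.88 in vitrification. Its log2 change was -2.55 ± 0.60 (limma adjusted p = 0.0495), and the call ended in 12 of the 18 alternatives, with adjusted p between 0.0515 and 0.442. CYC1 had no overlap but missed the threshold, with a log2 difference of -2.01 (95% interval -3.03 to -0.996, limma adjusted p = 0.0515). Without vitrification replicate 2, the library with the lowest sum, the median member relative to the median of all genes was -0.45 in place of -0.92, and without replicate 1 it was -1.43.

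**Figure D4:**
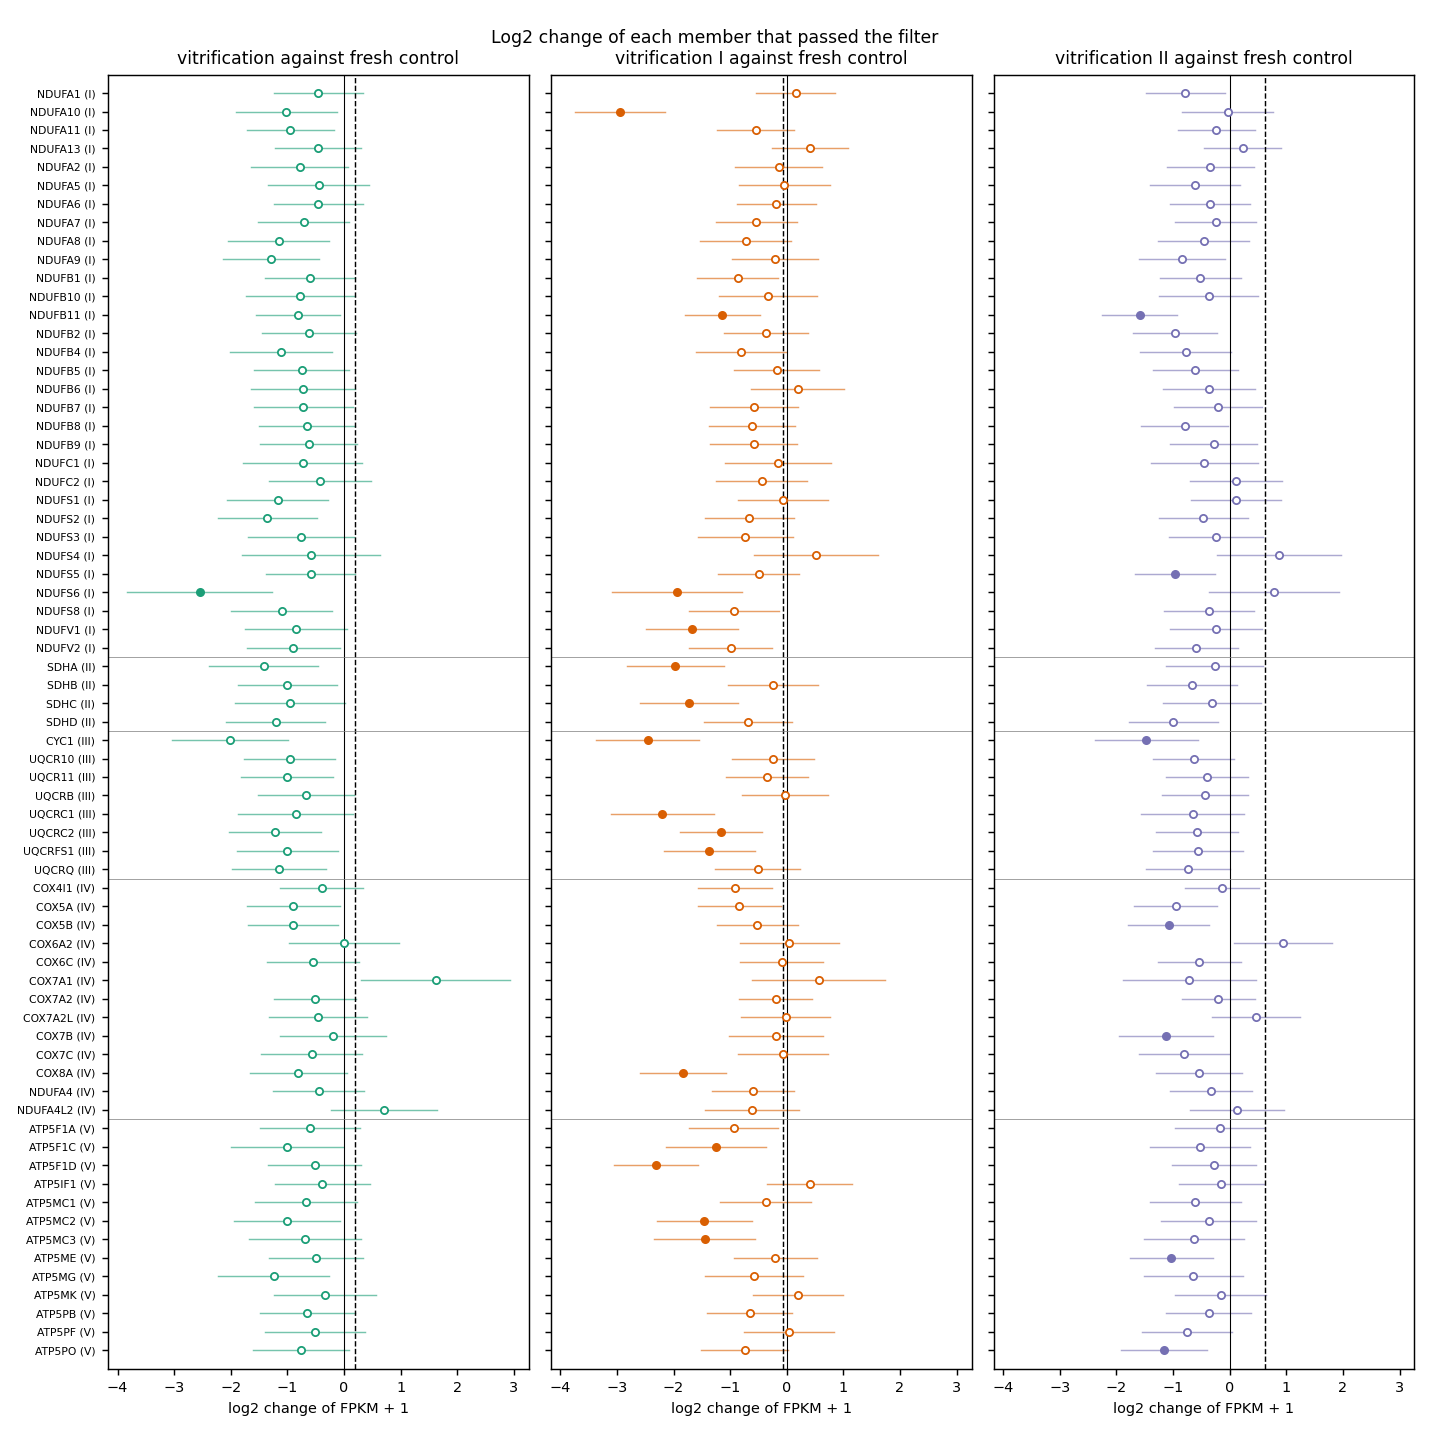
Log2 change of FPKM + 1 (horizontal axes) of the 69 members tested in each vitrified group against fresh control, ordered by complex; lines are 95% intervals from limma, filled points are called, and the dashed line is the median of all genes tested. In vitrification II 66 of the 69 members lie left of the dashed line at 0.62, and in vitrification I the called members spread from -1.14 to -2.95.

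Vitrification II and vitrification I were also compared directly. With the FPKM as deposited, 9 members were higher in vitrification II and 1 was lower, where 34.7% of all genes tested were called higher and 3.75% lower. The direction of this count turned with the scaling. With totals that leave out mitochondrial transcripts 4 members were higher and 24 lower, against 16.4% and 7.48% of all genes. With quantile normalization 7 were higher and 25 lower, against 13.6% and 14.6% of all genes. The median over members was 0.03 and that over all genes tested 0.68; without mitochondrial transcripts these were -0.61 and 0.22. Libraries did not overlap in 13 members that were higher and 5 that were lower (NDUFA1, COX5B, COX7C, ATP5ME and ATP5PF), against 42.6% and 7.07% of all genes. NDUFA10 (2.91 ± 0.38, limma adjusted p = 9.4e-05), NDUFS6 (2.73 ± 0.54, limma adjusted p = 0.00141), ATP5F1D (2.05 ± 0.35, limma adjusted p = 0.000528) and SDHA (1.71 ± 0.40, limma adjusted p = 0.00436) were higher in vitrification II under all 18 alternatives. UQCRC1, NDUFV1, SDHC, COX8A and ATP5MC2 were also called higher but lost the call with totals that leave out mitochondrial transcripts. NDUFA1, an accessory subunit of complex I, was at 591, 364 and 417 FPKM in vitrification I and 182, 229 and 303 in vitrification II, without overlap. NDUFA1 fell by 0.94 ± 0.33 in vitrification II relative to vitrification I (limma adjusted p = 0.0339). The NDUFA1 call ended in 6 of the 18 alternatives, with limma adjusted p between 0.0509 and 0.142.

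Few members separated the vitrified groups from vitrification. NDUFA10 and ATP5F1D were lower in vitrification I than in vitrification, by log2 changes of -1.92 ± 0.42 and -1.79 ± 0.39 (limma adjusted p = 0.0195 for each). No member was called higher with the FPKM as deposited. Of all genes tested, 4.42% were called lower and 1.21% higher. At an unadjusted p under 0.05 limma gave 5 lower and 4 higher members, against 1716 lower and 495 higher of all 9411 genes tested. All libraries of vitrification I were above both vitrification libraries in 5 members (NDUFA1, NDUFA9, NDUFA13, NDUFS1 and NDUFS4) and below them in 5 (NDUFA10, UQCRC1, COX8A, NDUFA4L2 and ATP5F1D), against 8.94% and 25.9% of all genes. The NDUFA10 and ATP5F1D calls ended without vitrification replicate 1, without vitrification replicate 2 or without vitrification I replicate 1. NDUFA9 was called higher in vitrification I with totals that leave out mitochondrial transcripts (1.31, limma adjusted p = 0.0421). It was also called higher with quantile normalization (1.23, limma adjusted p = 0.0393). Of all genes tested, 1.55% and 3.1% were called higher under these 2 scalings. In vitrification II against vitrification, NDUFS6 was higher and COX7A1 lower, with 5.05% of all genes tested called higher and 0.935% lower. Libraries did not overlap in 17 members that were higher and 3 that were lower (NDUFB11, NDUFS5 and COX7A1), against 39.5% and 7.27% of all genes. NDUFS6 was at 38.5, 39.7 and 21.4 FPKM in vitrification II, above both vitrification libraries, and its log2 change was 3.34 ± 0.60 (limma adjusted p = 0.0135). The NDUFS6 call ended without either vitrification library and without vitrification II replicate 2, and the COX7A1 call ended in 9 alternatives.

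The isoforms of complex IV were at very different levels. COX4I1 was at 625 ± 51.3 FPKM in fresh control, while COX4I2, its lung and hypoxia-linked form, did not exceed 1.62 FPKM in any library. COX7A2, the form of most tissues, was at 799.9 ± 116 FPKM in fresh control and 565 ± 142, 701 ± 117 and 692 ± 29.6 in vitrification, vitrification I and vitrification II. COX7A1, the heart and muscle form, was at 4.01, 5.39 and 1.75 FPKM in fresh control and 8.78 and 18.0 in vitrification. Its levels were 14.4, 2.67 and 4.04 FPKM in vitrification I and 3.33, 0.55 and 2.00 in vitrification II, so the vitrification libraries were above fresh control and vitrification II. The log2 change of COX7A1 in vitrification II against vitrification was -2.32 ± 0.62 (limma adjusted p = 0.0417). COX6A2, another muscle form, was at 5.94, 3.59 and 3.87 FPKM in fresh control and 8.33, 11.99 and 8.16 in vitrification II, without overlap but not called (limma adjusted p = 0.0967). The muscle marker list has 4 of 5 genes matched, and its sum, mostly ACTA1, was 0.99 to 108 FPKM in fresh control and 39.1 to 71.9 in vitrification II; its part in the result was not tested. COX6A1, the ubiquitous partner of COX6A2, was listed at 0 in all 11 libraries, and COX6B2, a testis form, did not exceed 0.69 FPKM. Whether the 0 of COX6A1 is absence or a failed estimate was not tested. NDUFA4 was at 829 ± 131 FPKM in fresh control and its paralogue NDUFA4L2 at 1.15 ± 0.74.

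The order of the members within a library was compared between libraries. Over the 69 members, Spearman's rho between libraries of the same group had a median of 0.96 (range 0.92 to 0.99, 10 pairs), and between libraries of different groups 0.90 (range 0.80 to 0.95, 45 pairs). These correlations are across genes, which are not independent replicates. The highest fresh control levels were those of ATP5PO (1415 ± 121 FPKM), the c-ring gene ATP5MC1 (1268 ± 221) and ATP5MG (1149 ± 57.6). Each of these overlapped with the next in that order, while ATP5PO lay above ATP5MG in every fresh control library. The lowest were NDUFA4L2, COX7A1, COX6A2 and NDUFS6. From fresh control to vitrification I, CYC1 went from rank 23 to 55, UQCRC1 from 11 to 36, NDUFA10 from 39 to 63, ATP5F1D from 52 to 62 and ATP5IF1 from 12 to 2.

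Centring each library on its own member median removes the common level and shows which subunits shifted against the others. Vitrification I had the widest spread of shifts relative to fresh control, with an SD of 0.73 log2 units over the 69 members, against 0.52 in vitrification and 0.47 in vitrification II. In vitrification I, 20 members were below and 12 above fresh control without overlap of libraries; of all genes tested, centred on the same member median, 7.5% were below and 32.3% above. The counts were 12 below and 7 above in vitrification, against 0.893% and 53.2% of all genes. In vitrification II they were 6 below and 8 above, against 0.701% and 65.3%. Centring on the members themselves places about as many of them on either side. The shifts in vitrification I ran from -2.41 for NDUFA10 to 1.10 for COX7A1, and ATP5IF1 was shifted by 0.94 without overlap. NDUFS4, an accessory subunit of the NADH-oxidising arm, was shifted up by 1.05 for vitrification I and 1.40 for vitrification II, without overlap with fresh control in either. On the FPKM scale its libraries overlapped with fresh control in both groups and it was not called (limma adjusted p = 0.522 and 0.219). NDUFA13, also known for a role in cell death, was shifted up by 0.95 and 0.77, likewise without overlap, and was also not called on the FPKM scale (limma adjusted p = 0.393 and 0.602).

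Genes around the chain were counted in lists. The mobile carrier CYCS, cytochrome c, was at 791 ± 262 FPKM in fresh control and 387 ± 60.0 in vitrification II, and fell by 0.98 ± 0.34 (limma adjusted p = 0.0474). Of 18 complex I assembly factors tested, 4 fell in vitrification I (ECSIT, ACAD9, FOXRED1 and DMAC2) and none rose, where 9.77% of all genes tested were called lower. In vitrification II, 2 of the 18, TIMMDC1 and DMAC2, rose and none fell, where 24.6% of all genes were called higher. DMAC2, which takes part in assembly of the membrane arm, was at 8.11 ± 0.90 FPKM in fresh control, 2.35 ± 1.47 for vitrification I and 23.1 ± 8.82 for vitrification II. The median over these factors was -0.29 for vitrification I and 0.40 for vitrification II, where all genes tested had -0.06 and 0.62. Of 34 assembly factors of complexes II to V, 8 fell and 2 rose for vitrification I, and 4 rose and none fell for vitrification II, against the same shares of all genes, with medians of -0.53 and 0.28. SDHAF2, which attaches the flavin to SDHA, was at 7.54 ± 3.09 FPKM in fresh control, 2.65 ± 2.10 for vitrification I and 22.8 ± 7.15 for vitrification II. It fell in the first (-1.31 ± 0.44, limma adjusted p = 0.049) and rose in the second (1.498 ± 0.44, limma adjusted p = 0.0221). LRPPRC, which stabilises mitochondrial mRNAs, rose in both, from 3.60 ± 0.85 FPKM to 11.3 ± 0.36 and 33.8 ± 1.81.

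Among 17 genes of the tricarboxylic acid cycle and pyruvate dehydrogenase, which supply NADH and succinate, 4 fell in vitrification I, IDH3G, SUCLG1 and MDH2 among them, and none rose, against 9.77% of all genes called lower. MDH2, mitochondrial malate dehydrogenase, was at 243 ± 85.5 FPKM in fresh control and 43.8 ± 23.6 in vitrification I (-2.51 ± 0.42, limma adjusted p = 0.00138). DLST was the 1 of 17 that rose in vitrification II, against 24.6% of all genes, and none fell; the medians were -0.76 for vitrification I and 0.06 for vitrification II. Of 15 regulators of mitochondrial biogenesis tested, none was called in vitrification I, and PPRC1, GABPA, GABPB1, TFB2M and MTERF3 rose in vitrification II, 5 of 15 against 24.6% of all genes. The medians were -0.03 and 0.98, against -0.06 and 0.62 over all genes tested. GABPA, the DNA-binding part of nuclear respiratory factor 2, was at 4.23 ± 3.06 FPKM in fresh control and 14.5 ± 3.81 in vitrification II (1.68 ± 0.43, limma adjusted p = 0.0124). None of these lists had a called member in vitrification against fresh control.

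The genes whose pattern over the 11 libraries was most like that of CYC1, by Pearson's r of log2(FPKM + 1) among 8157 genes with a symbol, were CHCHD10 (0.97), FUT4 (0.97), SRM (0.94), STARD10 (0.93) and the member UQCRC2 (0.93). These values are a description over libraries that share their groups, mitochondrial share and unknown depth.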

How the data were processed

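RNA was measured by Smart-Seq2 in 12 samples of 4 groups, of which 11 libraries were in the table used here. FPKM values were deposited by the authors for each gene identifier; FastQC, DESeq2, TopHat2 2.0.13 and Cufflinks 2.2.1 are listed in the submitters' processing notes with no role given. The genome build is not given in the sources used here, so no coordinates or sequences are printed. From the deposited FPKM, log2(FPKM + 1) was computed, and 9411 genes that reached an FPKM of 1 in 3 or more libraries were fitted with limma 3.58.1 in R 4.3.3 (1 mean per group, trended prior, Benjamini-Hochberg over all genes kept). The test was checked on simulated data. No whole-read steps were seen among low values, so depth is unknown and precision rests on the spread between libraries.

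The design set out 3 vitrification libraries, and 2 were analysed. Members and lists were chosen with earlier results of these data known. Genes were named by a fixed rule: per complex up to 4 members with the smallest F test p, per comparison up to 5 called members in each direction, listed core subunits and isoform families. Some members outside this rule are also given with values, NDUFS4, NDUFA13, ATP5ME, NDUFS5 and ATP5MG among them. Means are ± SD and log2 changes ± SE. Alternatives were another pseudocount, other filters, a total without mitochondrial transcripts, quantile normalization, a replicate block, 2 groups only, and each library left out. The result of 1 gene of a pathway list is not reported here.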

Additional observations from a re-analysis of the deposited data

How the results depend on the processing

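Of 37 member calls over the 6 comparisons, 12 held in all 18 alternatives, and none changed direction. The median over members did: for vitrification II against vitrification I it was 0.03, and it was -0.61 without mitochondrial transcripts, -0.47 with quantile normalization, -0.005 without the filter, -0.15 without vitrification I replicate 3 and -0.03 without vitrification II replicate 2. For vitrification II against vitrification it went from 0.33 to -0.08 and -0.07 under the first 2 of these, and relative to all genes from -0.13 to 0.31 without the filter and 0.29 without vitrification replicate 1. For vitrification I against vitrification it went from 0.26 to -0.08 without vitrification replicate 2. The counts of called members moved by over 1.5 times as follows. Vitrification against fresh control (1 call) gave 0 with 2 groups only, without the low-value filter, with totals that leave out mitochondrial transcripts and with a pseudocount of 0.1, and 0 to 2 with a library left out. Of all genes, 0%, 0.116%, 0.0632% and 0.0425% were called lower under the named settings in that order. Vitrification I against fresh control (15) gave 9 without the filter and 9 without mitochondrial transcripts, and 7 to 20 with a library left out. Of all genes, 1.91% and 5.31% were called lower under these settings in that order, and 4.88% to 14.1% with a library left out. Vitrification II against fresh control (7) gave 15 with 2 groups only, 14 lower and 1 higher. It gave 1 without the filter, 13 without mitochondrial transcripts, and 1 to 10 with a library left out. Of all genes, 1.57%, 0.359% and 1.21% were called lower under these settings in that order, and 0.331% to 1.71% with a library left out. With 2 groups only, 29.8% of all genes were called higher. Vitrification I against vitrification (2) gave 0 with 2 groups only and 0 to 3 with a library left out. Vitrification II against vitrification (2) gave 1 without the filter, without mitochondrial transcripts or with the other pseudocount, 4 with quantile normalization, and 0 to 2 with a library left out. Of all genes, 2.27%, 0.601%, 0.117% and 2.18% were called lower under the named settings in that order. Higher calls took 1.63%, 0.421%, 0.393% and 1.33%. Vitrification II against vitrification I (10) gave 6 without the filter, 28 without mitochondrial transcripts, 32 with quantile normalization, and 7 to 14 with a library left out. Of all genes, 9.79%, 16.4% and 13.6% were called higher and 0.859%, 7.48% and 14.6% lower under these settings in that order. With a library left out, 25.7% to 38.2% were called higher and 2.21% to 3.98% lower. The F test (15) gave 9, 25 and 27 under those 3 settings and 10 to 20 with a library left out. It called 42.7% of all genes with the FPKM as deposited, and its shares under other settings are not given here. In vitrification I against vitrification with 2 groups only, 1.39% of all genes were called lower and 0.478% higher. The cause of these moves was not tested. Leaving out mitochondrial transcripts moved the median of all genes to 0.38 for vitrification, 0.27 for vitrification I and 0.50 for vitrification II, each against fresh control. Where a library is left out of vitrification, the lone library is assumed to vary like the other groups.

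With the replicate number as a block, against fresh control the calls were 2 for vitrification, 14 for vitrification I and 4 for vitrification II, and there was 1 in vitrification II against vitrification. The numbers were not taken to pair libraries: deviations of same-numbered libraries correlated at -0.16 to 0.14 (15 pairs), those of other pairs at -0.14 to 0.16 (30 pairs), and 3 of 11 libraries correlated best with their own number.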
